A study of Mus musculus with 4 samples.

Results

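The Vmn1r genes encode the V1R receptors, and occupancy of the replication timing factor RIF1 was examined at all 203 protein-coding genes whose symbol begins with Vmn1r on chromosomes 1 to 19 of the mm9 annotation, out of 21418 coding genes on these chromosomes. The rule uses the symbol alone and no measured value, although the family was picked with earlier results of these data known. The 203 genes carry 202 different symbols, as Vmn1r63 is given to a pair of overlapping genes.

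Chromatin immunoprecipitation followed by sequencing (ChIP-seq) had been performed in primary splenic B cells of 2 groups of mice with 2 samples each. Cells of Rif1FH/FH mice carry RIF1 with FLAG and HA epitope tags at the endogenous gene, and cells of C57BL/6 (Rif1WT/WT) mice, whose RIF1 is untagged, served as the negative control. All were cultured for 72 h, with 5 µg/ml of the B cell activator LPS and 5 ng/ml of the cytokine IL-4 in the medium, and chromatin was precipitated with an anti-HA antibody according to the protocol, while the antibody label names the anti-CD43 beads used to isolate B cells. The labels do not say whether the samples of a group came from separate animals, nor give age or sex.

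The values were positions only, in a list of 16332 intervals called in each of the Rif1FH samples. Narrow intervals (under 50 kb, the peaks, 16043) and wide intervals (50 kb or more, taken to be the RIF1-associated domains or RADs, 289) were treated apart. The list gives no height, no depth and no value per sample. A difference between Rif1FH and Rif1WT cells and the spread between replicates could therefore not be computed, and no test was made. Confidence intervals (95%, exact Clopper-Pearson) cover counting error only. They treat genes as independent, although neighbouring Vmn1r genes share sequence and can share an interval. A gene with no listed interval is only a gene at which none was kept.

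V1R receptors are G protein-coupled receptors of the vomeronasal organ, which detects pheromones and other chemical cues of social behaviour. Each sensory neuron expresses one or very few of these receptors, and the genes lie in tandem clusters that expanded by duplication. In other tissues, lymphocytes among them, the receptor genes are regarded as silent. Expression was not measured in the data used here, so that silence in these B cells is background and was not checked.

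The sequences around the annotated 5′ ends of Vmn1r genes, called promoters here, are poor in CG dinucleotides. Examples are printed beside sequences at which RIF1 peaks were listed. In each printed Vmn1r sequence the annotated 5′ end is the A of an ATG, so the annotation may begin at the start codon. The transcription start and the promoter in the strict sense may then lie elsewhere, which was not checked. Each sequence is given 5′ to 3′ on the strand of the gene, from 250 bases before to 50 bases after the annotated 5′ end, read from the mm9 reference, with every CG in capitals. Vmn1r234 (chr17:21365540-21365839, plus strand) lay closest to a peak, Vmn1r188 (chr13:22179497-22179796, plus strand) is the first gene of the chromosome 13 cluster, and Vmn1r223 (chr13:23340857-23341156, plus strand) lay inside a wide interval. The promoter of Vmn1r93 (chr7:20724388-20724687, minus strand) is identical to those of Vmn1r114 and Vmn1r126 on the same chromosome, so that a read from it cannot be assigned to a single locus.
Vmn1r234: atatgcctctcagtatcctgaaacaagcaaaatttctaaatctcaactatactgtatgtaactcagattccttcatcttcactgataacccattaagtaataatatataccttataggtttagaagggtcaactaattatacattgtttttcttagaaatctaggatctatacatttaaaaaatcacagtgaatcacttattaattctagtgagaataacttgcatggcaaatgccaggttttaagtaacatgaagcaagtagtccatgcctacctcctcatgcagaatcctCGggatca
Vmn1r188: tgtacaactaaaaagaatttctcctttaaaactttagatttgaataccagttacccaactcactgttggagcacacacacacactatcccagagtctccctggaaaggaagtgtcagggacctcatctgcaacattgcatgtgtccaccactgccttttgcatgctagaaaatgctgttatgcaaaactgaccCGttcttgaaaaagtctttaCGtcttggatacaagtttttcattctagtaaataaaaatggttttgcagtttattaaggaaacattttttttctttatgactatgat
Vmn1r223: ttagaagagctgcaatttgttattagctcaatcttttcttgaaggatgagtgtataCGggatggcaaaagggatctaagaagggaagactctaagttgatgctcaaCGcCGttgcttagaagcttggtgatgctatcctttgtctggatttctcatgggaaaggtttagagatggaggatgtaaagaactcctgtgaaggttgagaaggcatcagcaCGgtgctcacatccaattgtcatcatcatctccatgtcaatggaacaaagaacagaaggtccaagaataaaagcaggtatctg
Vmn1r93: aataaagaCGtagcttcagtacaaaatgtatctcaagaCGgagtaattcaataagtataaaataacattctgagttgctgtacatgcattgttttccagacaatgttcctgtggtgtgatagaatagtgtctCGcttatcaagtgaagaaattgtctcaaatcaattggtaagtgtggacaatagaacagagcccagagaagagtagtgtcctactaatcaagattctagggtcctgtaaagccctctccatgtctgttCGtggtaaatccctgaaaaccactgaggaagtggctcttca

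For contrast, the promoter of Zfp160 (chr17:21145655-21145954, plus strand), a zinc finger gene between Vmn1r genes on chromosome 17, overlapped a peak. The same is shown for Trpc2 (chr7:109213775-109214074, plus strand), which encodes the ion channel of vomeronasal signalling and also had a peak. The last sequence is the middle of the peak nearest to Vmn1r234 (chr17:21369086-21369385, plus strand).
Zfp160: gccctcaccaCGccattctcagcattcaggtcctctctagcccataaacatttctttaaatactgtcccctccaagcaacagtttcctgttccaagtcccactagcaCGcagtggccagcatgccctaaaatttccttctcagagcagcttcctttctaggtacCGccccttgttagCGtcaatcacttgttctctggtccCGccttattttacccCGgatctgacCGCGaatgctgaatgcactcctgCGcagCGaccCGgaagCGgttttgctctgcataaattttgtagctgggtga
Trpc2: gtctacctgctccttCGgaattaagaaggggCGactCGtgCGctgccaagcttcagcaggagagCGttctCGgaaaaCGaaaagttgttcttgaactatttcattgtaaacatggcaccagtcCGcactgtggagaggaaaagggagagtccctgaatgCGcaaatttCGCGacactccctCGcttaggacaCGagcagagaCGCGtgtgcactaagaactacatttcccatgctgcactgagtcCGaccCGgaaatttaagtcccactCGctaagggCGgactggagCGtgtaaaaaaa
Peak near Vmn1r234: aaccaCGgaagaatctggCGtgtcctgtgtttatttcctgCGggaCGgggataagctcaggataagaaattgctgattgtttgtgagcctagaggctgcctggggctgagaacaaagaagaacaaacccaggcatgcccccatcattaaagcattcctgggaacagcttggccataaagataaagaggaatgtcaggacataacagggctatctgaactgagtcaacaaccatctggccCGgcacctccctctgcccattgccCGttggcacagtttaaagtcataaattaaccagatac

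The printed Vmn1r promoters held 1 (Vmn1r234), 2 (Vmn1r188), 4 (Vmn1r223) and 4 (Vmn1r93) CG dinucleotides, against 12 at Zfp160 and 20 at Trpc2. Over all members the median was 1 CG per promoter (quartiles 0 and 2, n = 203). It was 12 (quartiles 3 and 23) over 21417 coding promoters, and 21 (quartiles 14 and 29) over the 6896 with a peak within 1 kb. Of the members, 25.6% had no CG at all, against 4.86% of all coding promoters. The GC box GGGCGG, searched on both strands, was present in 2 of 203 member promoters (0.985%) and in 43.8% of all promoters. In contrast, TATAAA was present in 45.3% of member promoters and 13.5% of all, and CCAAT in 63.5% and 37.6%. None of these motifs contains another, and a match is not a binding site.

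No Vmn1r gene had a RIF1 peak. None of the 203 genes overlapped a narrow interval by 1 bp or more, which allows a share of up to 1.48%, whereas 36.2% of all autosomal coding genes did (7764 of 21418). Likewise, 0 of 203 had a narrow interval in the window of 1 kb either side of the 5′ end, against 32.2% of all coding genes (6896 of 21418). Member genes are short, with a median length of 930 bp against 15535 bp for all coding genes, so the overlap over the gene is not compared over equal lengths. The window at the 5′ end has the same length for every gene, but it may not lie at an equivalent place. Most members have a single annotated exon, and their annotated 5′ end may be a start codon rather than a transcription start.

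Wide intervals covered 5 members. These 5 genes (2.46%, 95% interval 0.804 to 5.65%) were inside a wide interval both over the gene and at the 5′ end, against 23.6% (over the gene) and 23.1% (at the 5′ end) of all coding genes. They were Vmn1r2 and Vmn1r3 on chromosome 4, Vmn1r55 on chromosome 7, and Vmn1r222 and Vmn1r223 on chromosome 13. No other member had either kind of interval. No narrow interval of the list overlaps a wide one, since peaks overlapping RADs had been dropped, so a gene inside a wide interval could not have a peak as well.

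**Figure D1:**
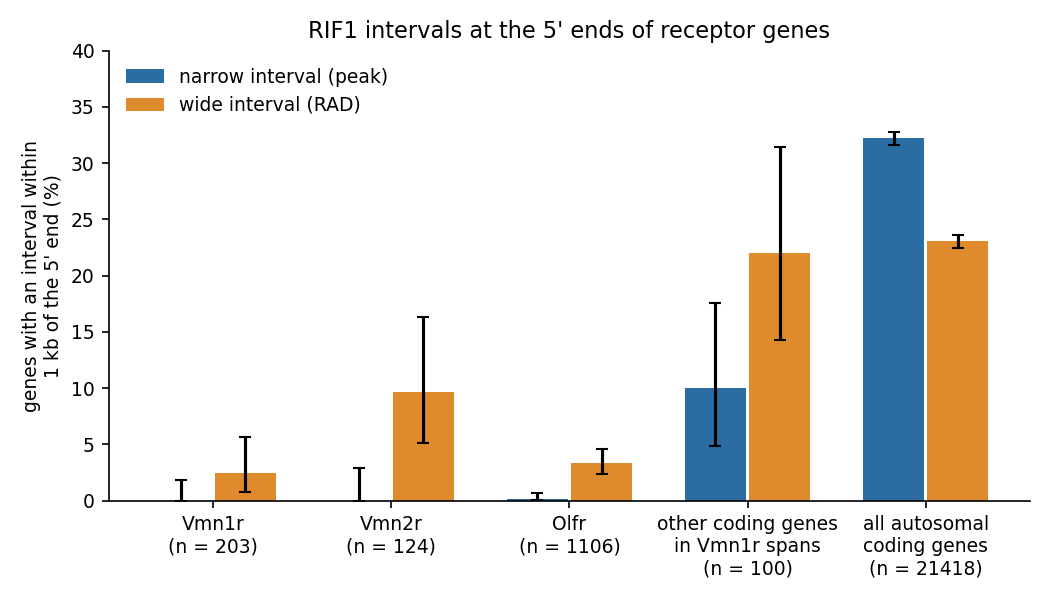
Share of genes (%) with a narrow (blue) or wide (orange) RIF1 interval within 1 kb of the 5′ end, by gene group, where bars are shares and error bars 95% Clopper-Pearson intervals. Vmn1r genes stood at 0% for narrow and 2.46% for wide intervals, and all autosomal coding genes at 32.2% and 23.1%.

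The other chemosensory receptor families also had few narrow intervals. Vmn2r genes, which encode the V2R receptors of a separate population of vomeronasal neurons, had a narrow interval at the 5′ end in 0 of 124 genes, which allows up to 2.42%, and over the gene in 1 of 124. Odorant receptor (Olfr) genes had one at the 5′ end in 2 of 1106 (0.181%, 0.0219 to 0.652%). Wide intervals lay at the 5′ end of 12 of 124 Vmn2r genes (9.68%, 5.10 to 16.3%) and 37 of 1106 Olfr genes (3.35%, 2.37 to 4.58%). The interval of the Vmn1r share overlapped those of the other families, only slightly for Vmn2r genes, and no difference between the families was tested.

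The 203 members fell into 10 clusters of 2 or more genes, joined where neighbours were at most 1 Mb apart, and 3 genes alone. The clusters spanned 12.7 Mb with 200 members, of which chromosome 7 held the largest, from Vmn1r91 to Vmn1r183 (64 members, chr7:20686507-24840710). The next by size were on chromosome 13 from Vmn1r188 to Vmn1r223 (32 members, chr13:22179747-23342192), on chromosome 6 from Vmn1r4 to Vmn1r31 (28 members, chr6:56906460-58422872), on chromosome 7 from Vmn1r66 to Vmn1r89 (24 members, chr7:10859177-13805638) and on chromosome 6 from Vmn1r40 to Vmn1r54 (15 members, chr6:89664197-90220047). Most members (186 of 203) consist of 1 annotated exon, and they are nearly evenly split between strands (105 plus, 98 minus).

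Summed over the clusters, narrow intervals were sparser inside the spans than beside them, but clusters differed. The spans held 15 narrow intervals, or 1.18 per Mb, while 500 kb on each side held 65 in 10.0 Mb (6.50 per Mb) and all autosomes held 6.32 per Mb. Of the 10 clusters, 7 held no narrow interval at all, with spans from 13.3 to 4154 kb. The shortest, of Vmn1r2 and Vmn1r3, lay wholly inside a wide interval and so could hold none. In short spans few would be present even at the density of all autosomes. The cluster of Vmn1r4 to Vmn1r31 held 5.28 per Mb, and the clusters starting with Vmn1r91, Vmn1r184 and Vmn1r188 had 0 in the flanks as well as inside. Wide intervals took up 10.2% of the spans, close to the 8.97% of all autosomal sequence, but as described next they lay mainly over genes of other families.

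**Figure D2:**
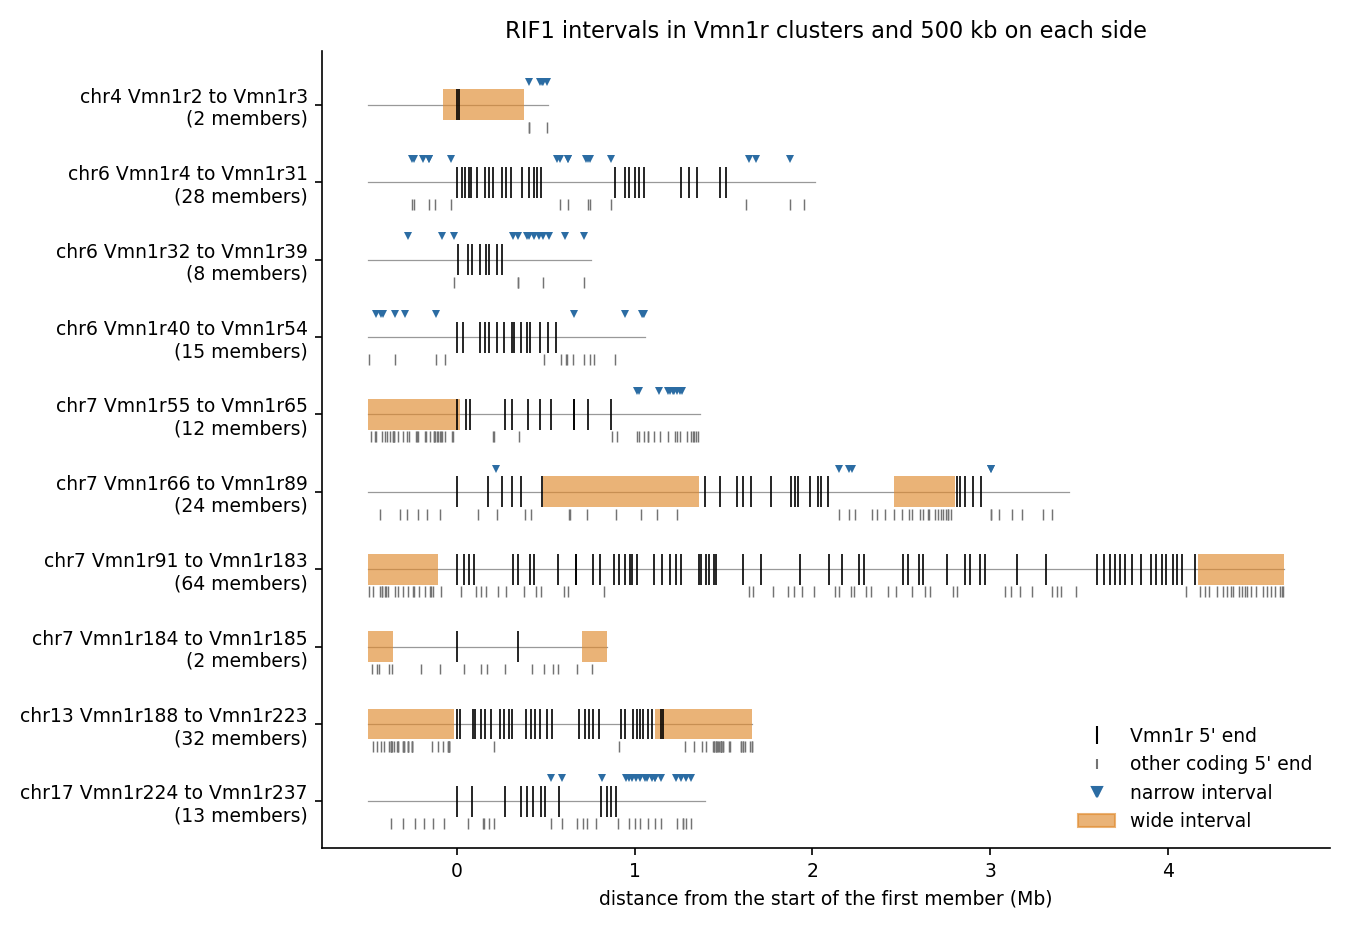
The 10 clusters with 500 kb on each side, where the x axis is the distance in Mb from the start of the first member. Long ticks are Vmn1r 5′ ends, short ticks other coding 5′ ends, triangles narrow intervals and orange blocks wide intervals. The 15 narrow intervals inside spans lie between blocks of members, and 5 members lie in wide intervals.

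The 15 narrow intervals inside clusters were in 3 clusters, and 13 of them overlapped a coding gene that is not a Vmn1r gene. In the cluster of Vmn1r4 to Vmn1r31, 8 lay in the middle of the span, between Vmn1r20 and Vmn1r21. Of these, 2 overlapped Ppm1k, a mitochondrial phosphatase gene, and 2 overlapped Herc6, a ubiquitin ligase gene. Pigy, which acts in GPI anchor synthesis, Lancl2 and Vopp1 had 1 each, and 1 was 2.29 kb from Pigy. All 5 genes had a peak at the 5′ end. The peak at Vopp1 (2193 bp wide) was 18.2 kb from the 5′ end of Vmn1r21, the member of this cluster closest to a peak, and that at Ppm1k (893 bp) was 89.1 kb from Vmn1r20.

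In the cluster of Vmn1r66 to Vmn1r89, 4 narrow intervals overlapped the zinc finger genes Zik1 (1), Zfp551 (1) and Zfp606 (2), each with a peak at its 5′ end. The nearest member was Vmn1r68, 31.9 kb from the peak at Zik1. In the chromosome 17 cluster of Vmn1r224 to Vmn1r237 (13 members), peaks lay at Ppp2r1a, which encodes the scaffold subunit of protein phosphatase 2A, and at Zfp160. The third was the one of the 15 closest to a member. It was 1260 bp wide (chr17:21368606-21369865), overlapped no annotated gene, and began 1.83 kb beyond the 3′ end and 2.82 kb from the 5′ end of Vmn1r234 (ENSMUSG00000057203.2, chr17:21365790-21366779). Its GC content was 47.2%, against 37.1% in the window of Vmn1r234.

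Thus, within the same spans, coding genes of other names had peaks where the members had none. Of 100 such genes, 10 (10.0%, 95% interval 4.90 to 17.6%) had a narrow interval at the 5′ end and 22 (95% interval 14.3 to 31.4%) a wide interval, against 0 and 5 of 203 members. These 100 are not all outside the receptor family, as V1ra8, V1rd19 and V1rh19 carry its older symbols. In the cluster of 64 members, 37 have symbols beginning with Gm, and their family was not checked. The lower quartile of length of the 100 was 924 bp, near the member median of 930 bp. The 10 with a narrow interval are the 5 genes of chromosome 6, Zik1, Zfp551, Zfp606, Ppp2r1a and Zfp160. All 22 with a wide interval were in the cluster of Vmn1r66 to Vmn1r89. Here a wide interval (chr7:11340001-12220000) held 7 coding genes, among them Zscan4c, Zscan4d and Zscan4f of the embryonic Zscan4 family. A second (chr7:13320001-13662000) held 15, among them several Zfp genes and Trim28, the corepressor of zinc finger proteins. These blocks held 0 of the 24 members, although Vmn1r71 and Vmn1r85 had their 5′ ends 5.11 and 8.56 kb outside their edges. Since 576 of the 578 edges of wide intervals lay on multiples of 2 kb, an edge is not resolved below that step.

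The chromosome 13 cluster filled a gap between wide intervals. Of its 32 members, 30 (Vmn1r188 to Vmn1r220) lay in a stretch of 1132 kb with no interval (chr13:22160001-23292000). The wide interval to the left (chr13:21222001-22160000) overlapped 50 coding genes, 23 of them Hist1 histone genes, and ended 19.7 kb before Vmn1r188. That to the right (chr13:23292001-25160000) overlapped 57 coding genes, 31 of them Hist1, and began 15.6 kb after Vmn1r220. The last members, Vmn1r222 (ENSMUSG00000061022.2, chr13:23323935-23324988) and Vmn1r223 (ENSMUSG00000069280.1, chr13:23341107-23342192), lay inside the right interval, 33.0 and 49.1 kb from its edge. The nearest peak to any member of the cluster was 1901 kb away (Vmn1r188).

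The cluster of 64 members on chromosome 7 had the same arrangement. It lay in a stretch of 4.28 Mb without an interval (chr7:20580001-24858000), which ranked 27 by length among 15901 stretches between neighbouring intervals on autosomes. A wide interval with 65 coding genes ended 107 kb before Vmn1r91, and another with 72 coding genes began 17.3 kb after Vmn1r183. The member of this cluster closest to a peak was Vmn1r91, at 3482 kb, and the farthest of all members was Vmn1r163, at 6463 kb. Vmn1r184 and Vmn1r185 (chr7:27051850-27397183) lay in the next stretch (1062 kb), also with a wide interval on each side. In these 3 stretches there were 96 members.

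Other clusters were bounded on at least one side by peaks. Vmn1r55 (ENSMUSG00000074402.3, chr7:5097820-5099103) had its 5′ end 12.9 kb inside the end of a wide interval with 42 coding genes. The 11 genes after it, from Vmn1r56 to Vmn1r65, lay in a stretch of 995 kb up to a peak 144 kb beyond Vmn1r65. On chromosome 6, the 15 genes from Vmn1r40 to Vmn1r54 lay between peaks 773 kb apart, with Vmn1r54 closest (99.6 kb). The 8 genes from Vmn1r32 to Vmn1r39 (chr6:66502177-66755326) lay between peaks 328 kb apart, with Vmn1r32 closest (23.4 kb). Altogether, 65 members in 9 stretches had a peak on each side and 36 members in 6 stretches a peak on one side and a wide interval on the other.

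Vmn1r2 (ENSMUSG00000078367.2, chr4:3099177-3100187) and Vmn1r3 (ENSMUSG00000078366.2, chr4:3111495-3112505) differed from the other clusters, as a single wide interval (chr4:3020001-3474000, 454 kb) held both and no other coding gene. Their 5′ ends were 79.2 and 92.5 kb from its start, and the nearest peak was 389 kb from Vmn1r3. Only 17.8% (Vmn1r2) and 14.8% (Vmn1r3) of the sequence around their 5′ ends was unique in the genome, as measured below.

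The 3 genes alone had neither kind of interval. Vmn1r1 on chromosome 1 was 33.1 kb from a peak, Vmn1r238 on chromosome 18 was 157 kb and Vmn1r90 on chromosome 7 was 1344 kb. Vmn1r90 is annotated over 92413 bp with 19 exons, and its annotated 5′ end had a GC content of 62.9%, the highest of all members.

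Distances describe the same pattern gene by gene. From the 5′ end of a member to the nearest narrow interval, the median was 934 kb (quartiles 161 and 4326 kb, range 2.82 to 6463 kb, n = 203). It was 39.7 kb for all coding genes (quartiles 0 and 315 kb), 390 kb for Vmn2r and 352 kb for Olfr genes. Because peaks overlapping RADs had been dropped, this distance runs across any wide interval in between. For 96 members the stretch around the 5′ end had a wide interval on both sides, so their nearest peak lay beyond one. Only 1 of 203 members (0.493%) was within 10 kb of a peak and 27 (13.3%) within 100 kb, against 38.4% and 59.9% of all coding genes. Of the members, 99 were more than 1 Mb away, 64 of them in the largest cluster. The distance to the nearest wide interval had a median of 801 kb in members and 1166 kb in all coding genes. Near wide intervals the order was the reverse, as 3.45% of members were within 10 kb of one and 9.85% within 100 kb, against 23.2% and 25.9% of all coding genes.

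**Figure D3:**
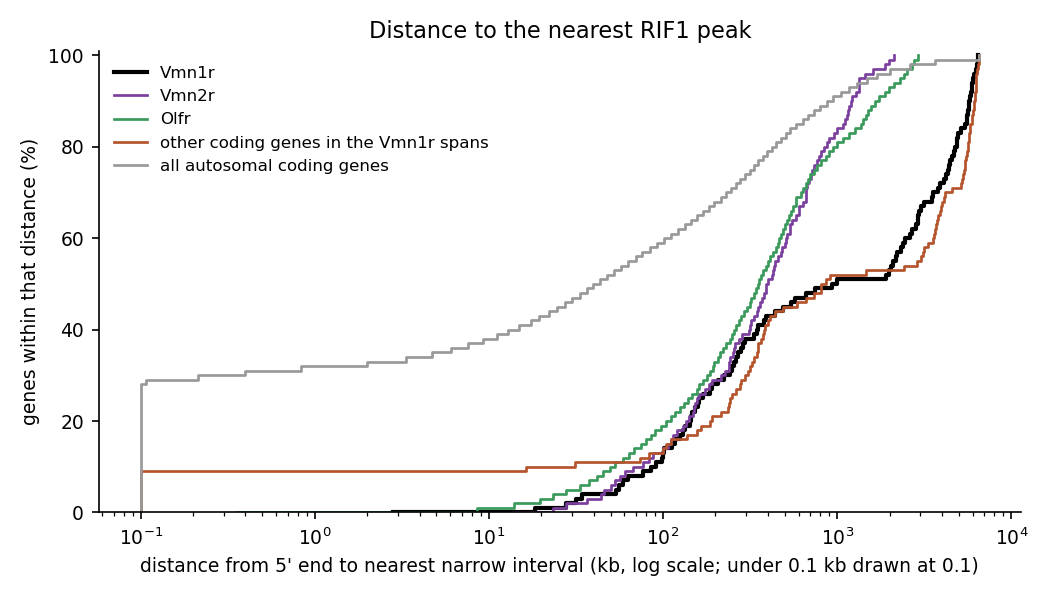
Cumulative share of genes (%) against the distance from the 5′ end to the nearest narrow interval (kb, logarithmic axis), by gene group. The Vmn1r line starts at 2.82 kb and reaches 51.2% at 1000 kb, where all autosomal coding genes reach 91.5%.

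Stretches free of any interval around members were long, as they were around the other receptor genes. Their median length was 1132 kb for members, 1192 kb for Vmn2r, 1147 kb for Olfr and 237 kb for all coding genes. Of the members, 197 had their 5′ end in 1 of 18 stretches with an interval on each side, and 107 (52.7%) in stretches over 1 Mb. Such stretches held 11.7% of all coding genes. The median stretch between neighbouring intervals on autosomes was 37.1 kb, whereas the 18 ranged from 61.8 kb (around Vmn1r233) to 4278 kb.

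Several properties of the sequence moved with these counts. Only reads that aligned to a single place were used by the authors, and the share of 50-base words that occur once in the genome (exact matches, both strands) was therefore computed within 1 kb of each 5′ end. The read length is not given in the sources used here, so these words stand in for reads, and mismatches were not allowed for. The median was 84.0% in members (quartiles 28.2 and 95.3%) and 100% in all coding genes (quartiles 96.4 and 100%). Members under 90% numbered 123 of 203 (60.6%), against 13.8% of all coding genes. In the cluster of 64 genes on chromosome 7 the median was 6.97%, and over its whole span 16.7% of words were unique. Absence of peaks there thus rests on little sequence that is unique by this measure. Of all members, 32 (15.8%) had a 300-base promoter identical to that of 1 or 2 others, in 14 groups.

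**Figure D4:**
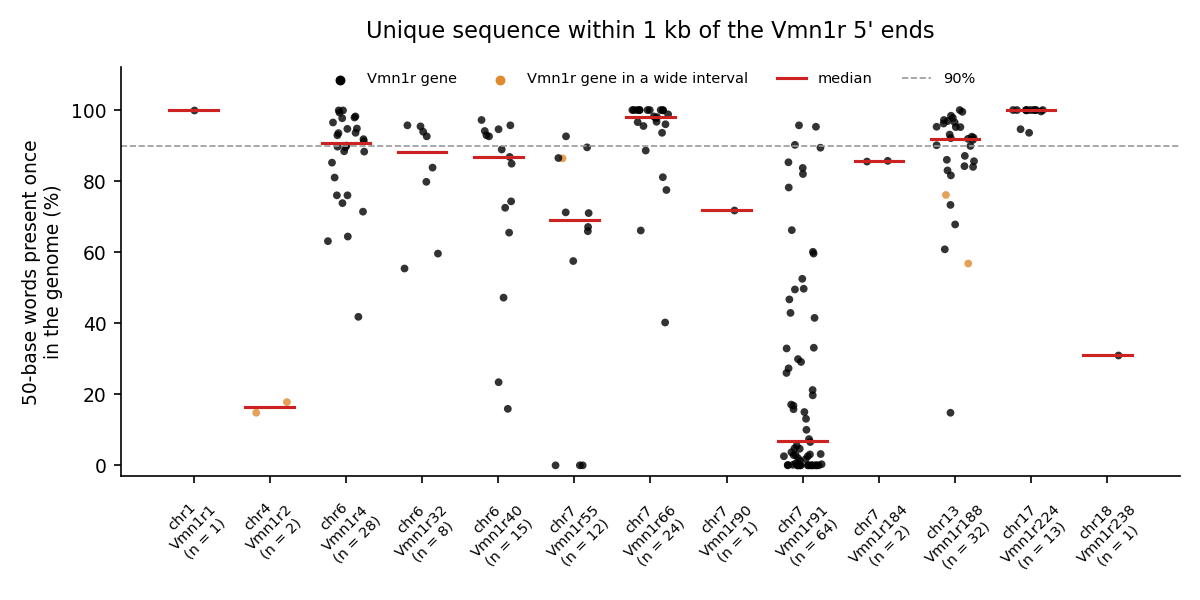
Share (%) of 50-base words within 1 kb of the 5′ end that are present once in the genome, for each Vmn1r gene by cluster, labelled by chromosome and first member. Red lines are medians and orange points members in a wide interval. The medians are 6.97% in the cluster starting with Vmn1r91 and 100% in that starting with Vmn1r224.

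Among members with mostly unique sequence, peaks were likewise not listed. Of the 80 members with at least 90% unique words, 0 had a narrow interval at the 5′ end, which allows up to 3.75%, against 36.3% of all coding genes with such sequence (6711 of 18466). None of the 80 had a wide interval, against 23.2%. Of all coding genes with under 50% unique words, 21.1% had a wide interval at the 5′ end and 1.19% a narrow one.

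The composition of the windows also differed. The median ratio of observed to expected CG within 1 kb of the 5′ end was 0.113 in members and 0.475 in all coding genes. The median GC content was 37.2% against 51.3%. Vmn2r and Olfr genes were close to the members, with median ratios of 0.120 and 0.137 and GC contents of 34.8% and 38.4%. Of all coding genes whose ratio was no higher than that of 95% of the members (0.19), 2.71% had a narrow interval at the 5′ end (125 of 4610) and 16.3% a wide one. The members within this ratio, 95% of them, had 0 narrow intervals there. Over all 203 members, a count of 0 allows up to 1.48%, which is below 2.71%. Of all coding genes within this ratio that also had at least 90% unique words, 3.59% had a narrow interval (108 of 3005, 95% interval 2.96 to 4.32%). The 77 members under the same limits had 0, which allows up to 3.90%. For narrow intervals at the 5′ end, a share as high as that of coding genes under the same limits was thus within what a count of 0 allows at this number. These genes share an upper limit of the ratio with the members, not its distribution. Like the 4610 above, they include the members within the limits, and any Vmn2r and Olfr genes within them, families in which peaks were rare. The share without receptor genes was not computed, so whether 3.90% also reaches that share is not known. For wide intervals the 77 members also had 0, against 16.6% of all coding genes under the same limits (500 of 3005). What part sequence composition and unique alignment have in these counts was not tested.

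Genes of vomeronasal and olfactory neurons that are not receptors had intervals at shares near those of all coding genes. Of 28 signalling and regulator genes listed, 27 were found by symbol, and Tfap2e was not. A narrow interval at the 5′ end was present in 10 of 27 (background 32.2%) and a wide interval in 6 of 27 (background 23.1%). Among the signalling genes, peaks lay at the 5′ ends of Trpc2, of Gnai2 and Gnao1, which encode the G protein subunits of V1R and V2R neurons respectively, and of Adcy3, the adenylyl cyclase of odorant signalling. Wide intervals held Gng8, Plcb2 and Itpr3. Gng13, Omp, Ano1, Ano2 and Cnga4 had neither.

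Among the regulators, Bcl11b, a transcription factor required for vomeronasal neuron development, had a peak at the 5′ end, as did Meis2, Lhx2, Ldb1 and Ebf2. Ebf1, a factor of both olfactory neurons and B cells, had 3 peaks over the gene and none within 1 kb of its 5′ end, where the nearest was 3.37 kb away. Bcl11a and Atf5 were in wide intervals, and Neurod1 had a peak over the gene 1.18 kb from its 5′ end. Of the guidance and adhesion genes, Nrp2 had a peak at the 5′ end and 4 over the gene. Kirrel3 had 1 over the gene only, Kirrel2 was in a wide interval, and Robo2 and Ncam1 had neither.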

How the data were processed

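According to the published methods, the authors used Trim Galore 0.6.4 for trimming and Bowtie 1.0.0 for alignment to mm9, allowing 2 mismatches and keeping reads with 1 alignment. Narrow and broad peaks came from MACS2 2.2.6, RADs from EDD, and bedtools 2.27.1 merged them, with those called in both replicates retained. Calling thresholds and the part that input and Rif1WT reads had in calling are not given in the sources used here. Peaks that overlapped RADs were dropped. Reads from sequence repeated in the genome were not kept. The deposited list holds positions (chromosome, start, end) and no score, depth or value per sample.

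Genes came from GENCODE M1 on the same build (NCBIM37), and coordinates are counted from 1. An interval was assigned to a gene or window at an overlap of 1 bp. Clusters joined members at most 1 Mb apart, and the span ran from the first start to the last end. Flanks of neighbouring spans did not include other spans. Upper limits for a count of 0 are 3 counts of the total. Unique words were counted over all sequences of the reference. Overlap, distance and word counts were tested on simulated data against bedtools and a direct count. Named genes were members in an interval, the member of each cluster nearest to a peak, the nearest and farthest of all members, first and last members of the 5 largest clusters, single members, narrow intervals inside spans, neighbours with a peak, and the listed pathway genes, of which 1 is not reported here. The members and lists were chosen with earlier results of these data known, and the CG and word classes, except the 90% limit for narrow intervals, after the values were seen. Computation used Python 3.11.15, numpy 2.4.6, pandas 2.3.3, scipy 1.17.1, pysam 0.24.0, numba 0.67.0 and samtools 1.23.1.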

Additional observations from a re-analysis of the deposited data

How the results depend on the processing

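The 10 counts, densities and medians were recomputed in 41 comparisons, and 34 stayed within 1.5 times the value given, as did both 0 counts for narrow intervals under stricter overlap, wider peaks and 53 pseudogenes added, and that at the 5′ end with any transcript start. Among those within 1.5 times, the median distance to a narrow interval fell from 934 to 625 kb with pseudogenes added, close to that limit. Windows of 5 kb gave 1 member with a narrow interval at the 5′ end (Vmn1r234). With peaks at or above the median width, the spans held 9 (0.708 per Mb) and the flanks 3.80 per Mb. With gaps of at most 500 kb, 3 wide intervals overlapped spans. In members with at least 90% unique words, chosen after seeing the data, 0 had a wide interval over the gene or at the 5′ end. The windows, the peak width and the gap change these counts by construction (wider windows, fewer peaks, shorter spans), and the cause of the last change was not tested.

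No paired analysis was possible because only positions are given. For the same reason, leaving out a replicate was not run, and no score allowed a stricter threshold. Depth is unknown, and little of the largest cluster is unique sequence.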

Other observations

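Vmn1r pseudogenes, which were not members, had no narrow interval over the gene or at the 5′ end, in 53 on chromosomes 1 to 19 and 1 on chromosome X (Vmn1r239-ps). Of these, 2 lay in wide intervals. Vmn1r-ps2 (chr4:3030906-3031739) was in the interval that also held Vmn1r2 and Vmn1r3, and Vmn1r-ps1 (chr2:174416731-174417303) lay 479 kb from the nearest peak. The pseudogenes are not all separate loci, as entries named Vmn1r62 and Vmn1r158 overlap the members of the same names. Inside the spans, V1ra8, V1rd19 and V1rh19, which carry older symbols of the same family and so were not members, had no interval either, at 166, 5515 and 2107 kb from the nearest peak. Of the 41 other coding genes in the cluster of 64 members, 37 had symbols beginning with Gm, that is, predicted genes without a family name. They lie among the members, and whether some are further V1R genes that the symbol rule missed was not checked.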
